A study of Mus musculus with 12 samples.

Results

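The 10 genes described here were grouped as hepatocyte bile acid and anion transporters. Slc10a1, Slco1b2, Slco1a1, Slco1a4 and Slco2a1 are on the uptake side, and Abcb11, Abcb4, Abcc2, Abcc3 and Abcc4 on the export side. Of these, Abcb4 moves phospholipid, and Slco2a1 carries prostaglandins and is also found in endothelial cells. The 10 genes were taken by symbol from the 18194 genes that the array names. Every probe set annotated to one of these symbols alone was used, 19 probe sets in all. Slco1b2 had 5 probe sets, Slco2a1 4, Slco1a1 and Slc10a1 2 each, and the other 6 genes 1 each. All 19 passed the filter on dim signals, and a gene is given by its brightest probe set unless another is named.

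Hepatocytes take bile acids up from the blood through the sodium-dependent carrier NTCP (Slc10a1) and the sodium-independent OATP family (Slco genes), and secrete them into the canaliculus through the bile salt export pump (Abcb11), with phospholipid delivered by Abcb4 and conjugated anions by Abcc2. Abcc3 and Abcc4 sit in the basolateral membrane and return conjugates to the blood, a route known to be used more when canalicular secretion is impaired. In mouse liver several of these carriers are known to differ between the sexes, Slco1a1 being known as male-predominant and Slco1a4 as female-predominant.

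Livers came from C57BL/6J mice of 30 weeks of age, in 4 groups of 3 arrays: LDC males, control males, LDC females and control females. LDC (low-dose cadmium) mice had drinking water with 100 nM cadmium chloride, which their dams had received from 1 week before mating and which the offspring went on drinking after weaning. Control mice and their dams had water alone, and all groups ate the same standard diet. RNA of each liver was hybridised to an Affymetrix Mouse Genome 430 2.0 array, and the values are MAS 5.0 signals, linear intensities scaled to the same trimmed mean in every array. By the labels, replicates are biological. No source used here states the litters, and the p-values measure the spread between these mice.

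Xist, the RNA of the inactive X chromosome, was between 72.3 and 134 in the LDC and control male arrays and at 16258 or more in every female array. Arrays correlated at 0.914 to 0.941 within groups and at 0.872 to 0.941 between groups (Pearson r of log2 signal across probe sets, which are not independent). The hepatocyte markers Alb, Ttr, Apoa1, Apoa2, Fgb, Cps1, Ass1 and Hpx summed to 353307 to 363197 in LDC males and to 362644 to 401589 in control males. In females the sums were 332802 to 365531 with LDC and 339265 to 386390 in controls. None of the 8 passed the test in any comparison. For LDC against control, 1 of the 8 estimates lay above 0 in males and 3 in females. In bulk liver, fewer cells of a type and less RNA per cell cannot be told apart.

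With LDC in males, 2 of the 10 transporter genes passed limma's test at an adjusted p under 0.05, Abcb11 and Slco2a1, and both were lower in LDC males. The share of all 27022 probe sets tested that passed in this comparison was 0.278%. This share counts probe sets, whereas the 10 genes are counted once each. In a fit with 1 probe set per gene, 27 of 12820 were higher and 23 lower. In females 0 of the 10 genes passed limma's test, against 0.122% of all probe sets. The methods' t-test could not decide this, since after adjustment it called 0 of all 27022 probe sets in females. An unadjusted limma p under 0.05 was found for 4 of the 10 in females, beside 9.01% of all probe sets. In males it was found for 5 of the 10, beside 10.2%. For the LDC effect in males minus that in females 1 gene passed, Abcb11, against 0.178% of all probe sets. For the mean effect over both sexes 1 gene passed, Slco2a1, against 0.0444%. When a 2-fold difference and an unadjusted p under 0.05 were asked for together, 0 of the 10 genes counted by their brightest probe set in either sex, beside 3.0% of all probe sets in males and 2.18% in females. The median log2 fold change of the 10 genes was -0.01 in males and 0.14 in females, beside 0.00 and 0.01 over all probe sets tested.

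**Figure D1:**
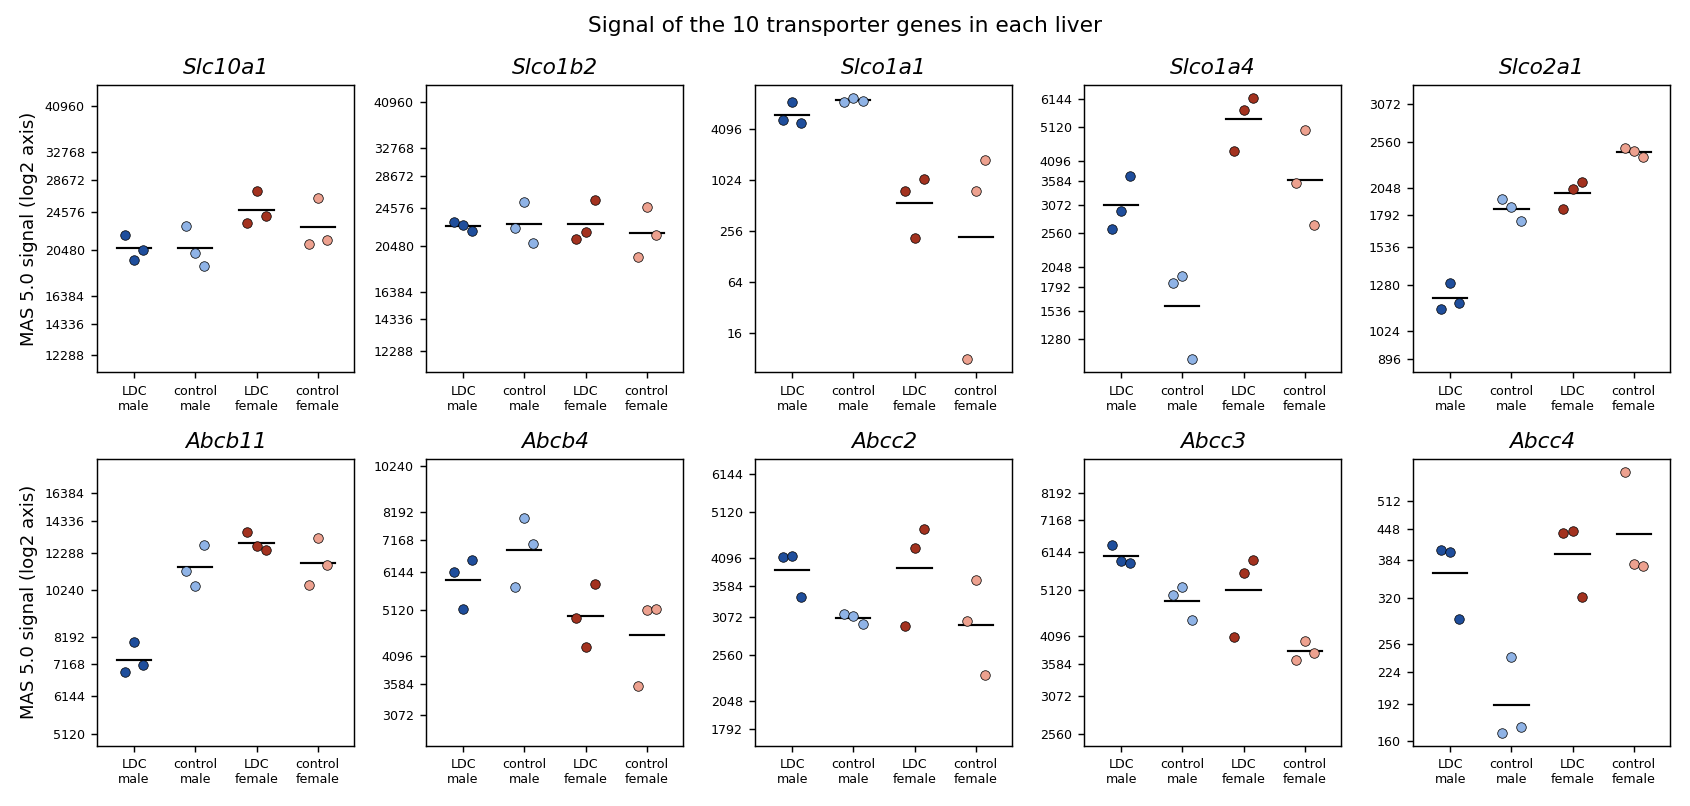
MAS 5.0 signal (log2 axis, a separate range in each panel) of the 10 transporter genes in each liver, by group, with the points as arrays and the bars as the mean on the log2 scale (n = 3). The 3 LDC males lie below all 9 other arrays for Abcb11 and Slco2a1, and Slco1a1 spans from 7.81 in 1 control female to 9502 in a control male.

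Abcb11 (probe set 1449817_at), the bile salt export pump and the main route of bile acids into bile, was the gene with the smallest p of the 10 in males. Its signal was 6901, 7981 and 7133 in LDC males, against 11268, 10476 and 12756 in control males. In LDC females it was 13561, 12702 and 12463, against 10504, 13169 and 11590 in control females. Every LDC male lay below every array of the other 3 groups, which overlapped with one another. The mean signal was 7339 ± 569 in LDC males and 11500 ± 1158 in control males (SD, n = 3 each), a log2 fold change of -0.65 ± 0.10 (SE) with an adjusted p of 0.0179. In females the log2 fold change was 0.14 ± 0.10 (adjusted p = 0.734, 95% interval -0.08 to 0.36). The difference between the effects, males minus females, was -0.79 ± 0.14 (adjusted p = 0.0459). The call in males was lost on leaving out control male 3, LDC male 1 or LDC male 3, with an adjusted p of up to 0.0977, and with no intensity trend (0.214) or the methods' t-test (0.397). The call for the difference was lost in 11 of 12 fits without 1 array (adjusted p up to 0.149).

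The promoter of Abcb11 is shown because known regulation of this gene by the bile acid receptor FXR works through repeats of the nuclear receptor half-site, AGGTCA. The 250 bases before the start of the transcript (chr2:69342617-69342866, minus strand, GRCm38.p6, RefSeq) hold 1 match, on the opposite strand, which begins 56 bases before the start and is printed in capitals.
Abcb11: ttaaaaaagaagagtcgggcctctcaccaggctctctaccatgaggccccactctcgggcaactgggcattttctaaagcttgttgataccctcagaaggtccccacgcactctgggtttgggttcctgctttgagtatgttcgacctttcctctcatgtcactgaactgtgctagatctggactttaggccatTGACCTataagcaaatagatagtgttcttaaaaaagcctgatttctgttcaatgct
The half-site was searched on both strands, in the 250 bases before each start. Only exact single copies were searched, so a repeat in which the other copy differs by a letter would not be found. In the printed window, aggcca, which differs from AGGTCA by 1 letter, stands 1 base before the match, as in an inverted repeat. Of all 32851 promoter windows in the table, 14.0% held at least 1 match, and of the 9 transporter genes with a window 5 did: Slc10a1, Slco1b2, Slco1a1, Abcc2 and Abcb11. A match is a description of the letters only.

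Slco2a1 (1420913_at), which carries prostaglandins into cells, was the other gene that fell in LDC males. Its signal was 1141, 1296 and 1176 in LDC males, against 1940, 1863 and 1748 in control males. It was 1849, 2032 and 2110 in LDC females, against 2482, 2443 and 2379 in control females. The groups did not overlap in either sex. The mean was 1204 ± 81.5 in LDC males and 1850 ± 96.9 in control males (SD, n = 3 each), and the log2 fold change was -0.62 ± 0.10 (SE, adjusted p = 0.0246). In females it was -0.29 ± 0.10 (adjusted p = 0.414), and the mean effect over both sexes was -0.45 ± 0.07 (adjusted p = 0.0464). The difference between the sexes was -0.33 ± 0.15 (adjusted p = 0.461), so the effects were not shown to differ.

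The other 3 probe sets of Slco2a1 were dim, with mean log2 signals of 7.33 to 8.25, and none passed. Their log2 fold changes in males were -0.09, -0.14 and -0.12. The call in males was lost in 6 of 12 fits without 1 array, those without LDC male 1, LDC male 3, control male 1, control male 2, control male 3 or LDC female 2, with an adjusted p of up to 0.122. It was also lost with no intensity trend (0.161), with only the 6 male arrays (0.0587) and with the methods' t-test (0.344). The call for the mean effect was lost in 10 of 12, up to 0.18. Slco2a1 is also found in endothelial cells, and 0 of the 11 endothelial markers tested passed in any LDC comparison. Their summed signal was 13147 to 14690 in LDC males and 12261 to 14232 in control males, and 8 of the 11 estimates in males lay above 0. In females it was 11453 to 15314 with LDC and 12978 to 15733 in controls, and 3 of the 11 estimates lay above 0. The part of endothelial cells in the signal of Slco2a1 was not tested.

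Slco1a4 (1420405_at), an OATP carrier with broad substrates that include bile acids and glycosides, had signals of 2623, 2942 and 3717 in LDC males, against 1843, 1927 and 1124 in control males. All LDC males were above all control males. The log2 fold change was 0.95 ± 0.23 (SE, 95% interval 0.45 to 1.45), with an unadjusted p of 0.00115 and an adjusted p of 0.14, which does not pass. In females the signals were 4377, 5710 and 6169 with LDC, against 3534, 5004 and 2688 in controls, which overlapped, and the log2 fold change was 0.57 ± 0.23 (adjusted p = 0.494). The mean effect over both sexes was 0.76 ± 0.17 (adjusted p = 0.12).

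Abcc4, a basolateral exporter of conjugated bile acids and nucleotides (probe set 1443870_at), had a signal of 405, 400.2 and 290 in LDC males, against 167, 241 and 171 in control males, and these groups did not overlap. In LDC females it was 438, 443 and 321, against 590, 378 and 373 in control females. The log2 fold change was 0.92 ± 0.25 in males (adjusted p = 0.175) and -0.14 ± 0.25 in females (adjusted p = 0.914), with a difference of 1.06 ± 0.35 (unadjusted p = 0.00889, adjusted p = 0.328). All control males lay below all 6 females, whereas LDC males overlapped with both female groups. The only probe set of Abcc4 was low, with a mean log2 signal of 8.37, beside 8.25 for the brightest of the dim Slco2a1 probe sets.

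Abcc3 (1428988_at), the other basolateral exporter, had signals of 6371, 5904 and 5846 in LDC males, against 4996, 5197 and 4433 in control males. In females it had 4085, 5563 and 5912 with LDC, against 3660, 3995 and 3780 in controls. In both sexes every LDC array was above every control array. Its log2 fold change was 0.31 ± 0.12 in males (adjusted p = 0.4) and 0.43 ± 0.12 in females (adjusted p = 0.266), and the mean effect of 0.37 ± 0.09 had an unadjusted p of 0.000809 and an adjusted p of 0.169. Abcc2 (1450109_s_at), the canalicular exporter of glutathione and glucuronide conjugates, had 4121, 4133 and 3397 in LDC males, against 3126, 3091 and 2973 in control males. It had 2946, 4297 and 4699 in LDC females, against 3021, 3686 and 2326 in control females, which overlapped. Its log2 fold change was 0.34 ± 0.18 in males (adjusted p = 0.545) and 0.40 ± 0.18 in females (adjusted p = 0.521). Neither gene passed in any comparison.

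Slc10a1 (1424898_at) and Slco1b2 (1449394_at), the sodium-dependent and a sodium-independent uptake carrier of bile acids, passed in no comparison. Slc10a1 had a mean of 20631 ± 1258 in LDC males and 20682 ± 2032 in control males (SD, n = 3 each), with a log2 fold change of 0.00 ± 0.10 (95% interval -0.22 to 0.22). In females the means were 24837 ± 2031 with LDC and 22953 ± 2904 in controls, a log2 fold change of 0.12 ± 0.10 (95% interval -0.10 to 0.34). The second probe set of Slc10a1 gave -0.01 in males and 0.17 in females. Slco1b2 had log2 fold changes of -0.01 (95% interval -0.23 to 0.21) in males and 0.06 (95% interval -0.16 to 0.29) in females.

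The other 4 probe sets of Slco1b2 did not pass in any comparison either. Of these, 2 were bright, and their log2 fold changes in males were 0.10 and 0.23. The other two were dim. In 1 of them, with 104, 178 and 145 in LDC females, against 2.87, 103 and 45.5 in control females, the log2 fold change was 2.54 (unadjusted p = 0.0166, adjusted p = 0.427). Abcb4 (1449818_at), the phospholipid floppase that protects the bile ducts from bile acids, had 6148, 5125 and 6511 in LDC males, against 5704, 7967 and 7026 in control males, and 4909, 4282 and 5801 in LDC females, against 3536, 5116 and 5129 in control females. The groups overlapped in both sexes, and the log2 fold changes were -0.21 ± 0.17 in males (adjusted p = 0.723) and 0.13 ± 0.17 in females (adjusted p = 0.87).

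Among the 10 genes, the LDC and control arrays did not overlap for 7 in males, 4 higher and 3 lower with LDC, beside 16.5% of all probe sets, and for 2 in females, beside 13.9%. In males the 4 higher were Slco1a4, Abcc2, Abcc3 and Abcc4, and the 3 lower were Slco1a1, Slco2a1 and Abcb11. In females Abcc3 was higher and Slco2a1 lower.

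**Figure D2:**
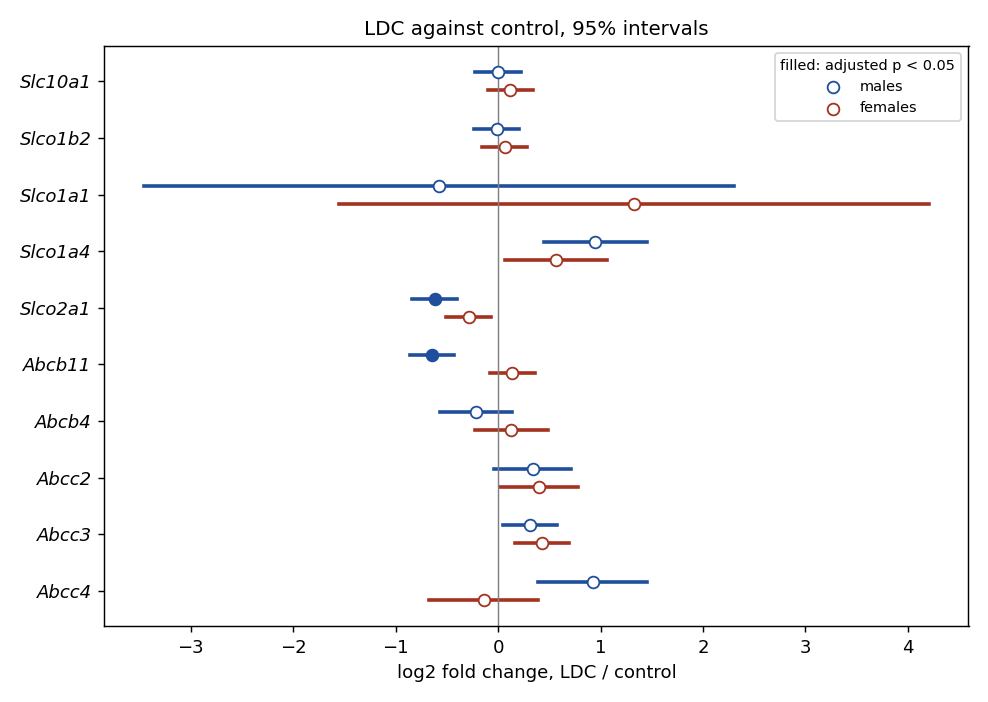
Log2 fold change of LDC against control for the 10 transporter genes in males (blue) and females (red), with 95% intervals from limma and filled points where the adjusted p is under 0.05. The filled points are Slco2a1 and Abcb11 in males, and the intervals of Slco1a1 are the widest.

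In LDC males against LDC females, 2 of the 10 genes passed, beside 6.29% of all probe sets: Slco2a1 and Abcb11 were lower in LDC males. In control males against control females, 5 passed, beside 7.73%: Slco1a1 and Abcb4 were higher in control males, and Slco1a4, Slco2a1 and Abcc4 lower. With 1 probe set per gene, 537 of 12820 were higher and 806 lower in control males, and 479 and 611 in LDC males. The sexes did not overlap for 5 of the 10 genes in LDC mice, beside 26.9% of all probe sets, and for 6 in control mice, beside 24.5%. These comparisons use the same arrays as those of LDC with control. Markers of other cells also differed between the sexes. In LDC males against LDC females, 3 of 5 neutrophil markers and 1 of 4 lymphocyte markers (Ighm) were higher. In control males against control females, 3 of 5 neutrophil markers, 2 of 7 stellate cell and fibroblast markers (Lrat and Pdgfrb), 1 of 4 lymphocyte markers (Cd79b) and 1 of 11 endothelial markers (Eng) were lower, and of the macrophage and Kupffer cell markers 0 of 8 passed and 0 of 8 estimates lay above 0. The stellate cell and fibroblast markers summed to 14909 to 15656 in LDC males, against 17202 to 19112 in LDC females, and to 11529 to 15013 in control males, against 16689 to 27354 in control females. The part of these cells in the sex differences of the transporter genes was not tested.

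Slco1a1 (1420379_at), the OATP carrier known as male-predominant, had the widest range on the log2 scale of the 10 genes. Its signal was 5274, 8505 and 4791 in LDC males, against 754, 209 and 1049 in LDC females. In control males it was 8631, 9502 and 8737, against 7.81, 764 and 1756 in control females. No female array reached a male array in either exposure. The log2 fold change of males over females was 3.45 ± 1.35 in LDC mice (adjusted p = 0.168) and 5.35 ± 1.35 in control mice (adjusted p = 0.0251). Control female 1, at 7.81, lies below the 48.6 that the filter asks of a mean signal, and without it that in LDC mice had an adjusted p of 0.000337 and that in control mice was 2.95 (adjusted p = 0.00401). The call in control mice was lost without control male 1, 2 or 3 (adjusted p up to 0.0744). The second probe set passed in both, with 3.13 ± 0.84 in LDC mice (adjusted p = 0.0382) and 4.24 ± 0.84 in control mice (adjusted p = 0.00636).

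For LDC against control, Slco1a1 gave a log2 fold change of -0.58 ± 1.35 in males (adjusted p = 0.931) and 1.33 ± 1.35 in females (adjusted p = 0.826), which became -1.08 without control female 1. All 3 LDC males lay below all control males on both probe sets. On the second, LDC males had 3336, 6341 and 3695, against 7657, 7411 and 6553 in control males, which gave -0.75 ± 0.84 (adjusted p = 0.823).

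Slco1a4 had the opposite sex difference. Its log2 fold change of males over females was -0.81 ± 0.23 in LDC mice (adjusted p = 0.056) and -1.19 ± 0.23 in control mice (adjusted p = 0.00626), and no male reached a female of the same exposure. The value in LDC mice passed in 3 of 12 fits without 1 array and in 6 of 12 other alternatives of the processing. Slco1a1 and Slco1a4 lie in 1 cluster with Slco1b2 on chromosome 6, and their promoters are shown together because the carriers differed between the sexes in opposite directions. The windows are chr6:141946963-141947212 and chr6:141856221-141856470, both on the minus strand (GRCm38.p6, RefSeq), with the half-site AGGTCA in capitals.
Slco1a1: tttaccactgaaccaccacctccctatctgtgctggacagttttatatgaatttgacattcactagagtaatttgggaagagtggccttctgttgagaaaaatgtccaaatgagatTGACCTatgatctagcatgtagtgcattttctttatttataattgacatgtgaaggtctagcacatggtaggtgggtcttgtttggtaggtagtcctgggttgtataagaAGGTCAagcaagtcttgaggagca
Slco1a4: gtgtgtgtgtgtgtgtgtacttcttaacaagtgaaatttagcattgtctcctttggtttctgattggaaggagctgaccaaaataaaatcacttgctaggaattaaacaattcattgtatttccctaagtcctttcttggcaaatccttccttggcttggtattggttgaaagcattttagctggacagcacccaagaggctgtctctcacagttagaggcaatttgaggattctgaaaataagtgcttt
Slco1a1 holds 2 half-sites, which begin 134 and 24 bases before the start, and the Slco1a4 window holds none of the letters searched. The STAT5 motif TTCNNNGAA, which growth hormone signalling uses, was found on either strand in 7.02% of all windows and in neither of these, although the windows of Slco1b2 and Slc10a1 hold it. The metal response element core was searched as TGCGCNC (12.5% of all windows) and TGCACNC (10.4%), and among the 9 genes with a window only 1, Abcc4, held the first and none the second. The antioxidant response element core TGACNNNGC (10.2% of all windows) was found in Abcc2 and Abcc4, and the HNF1 half-site GTTAAT (6.43%) in Slco1b2. The strings overlap one another in no window of these genes. No match says only that these letters are not in the window.

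Slco2a1 was lower in males by a log2 fold change of -0.73 ± 0.10 in LDC mice (adjusted p = 0.000529) and -0.40 ± 0.10 in control mice (adjusted p = 0.0296). The call in control mice was lost in 5 of 12 fits without 1 array, those without control female 1, 2 or 3 or control male 2 or 3 (adjusted p up to 0.0992). The endothelial marker Eng was lower in control males by -0.55 ± 0.15 (adjusted p = 0.0393), and 0 of the 11 endothelial markers passed between LDC males and LDC females. Abcb11 was lower in males in LDC mice, at -0.82 ± 0.10 (adjusted p = 0.000186), and differed between the sexes by -0.03 ± 0.10 in control mice (95% interval -0.25 to 0.19). The call in LDC mice held in all 12 fits without 1 array for both genes, with adjusted p of up to 0.00433 for Slco2a1 and up to 0.00192 for Abcb11. Abcc4 differed between LDC males and LDC females by -0.14 ± 0.25 (95% interval -0.67 to 0.40) and was lower in control males than in control females, at -1.20 ± 0.25 (adjusted p = 0.00836). Abcb4 differed by 0.25 ± 0.17 in LDC mice (adjusted p = 0.459) and was higher in control males than in control females by 0.59 ± 0.17 (adjusted p = 0.0403), a call lost without control female 1, control male 2, control male 3, LDC female 1, LDC male 1 or LDC male 3 (adjusted p up to 0.159).

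**Figure D3:**
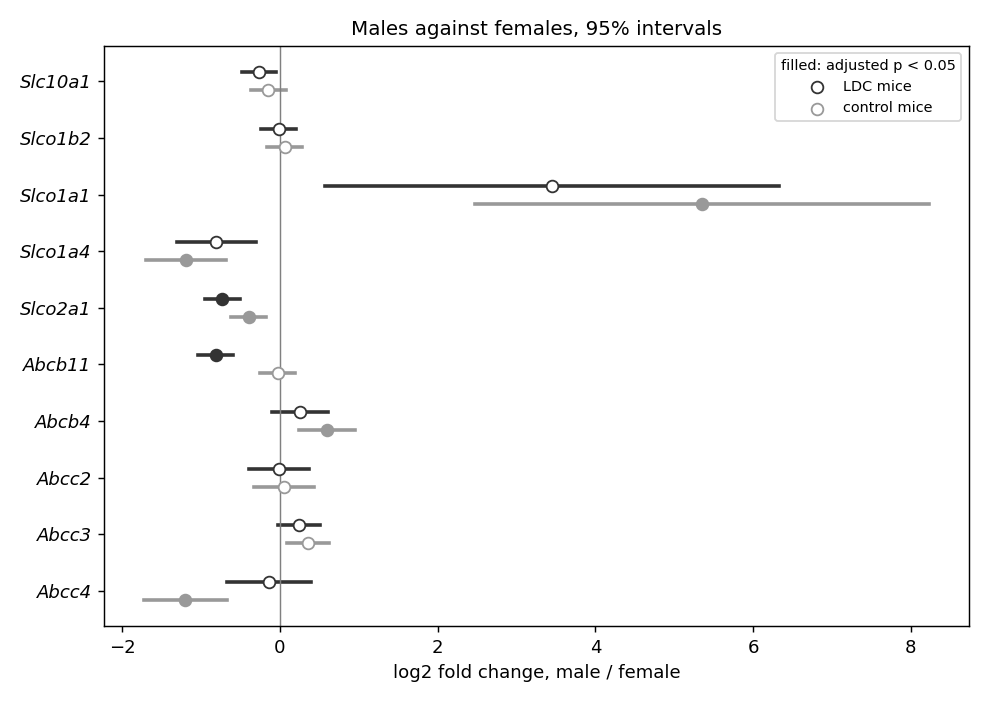
Log2 fold change of males over females for the 10 transporter genes in LDC mice (black) and control mice (grey), with 95% intervals from limma and filled points where the adjusted p is under 0.05. Abcb11 is filled in LDC mice alone, and Slco1a1, Slco1a4, Abcb4 and Abcc4 are filled in control mice alone. Whether the sex difference differs between exposures was tested by the male minus female LDC effect, which passed for Abcb11 alone. That effect was -1.91 for Slco1a1 (adjusted p = 0.786), 0.38 for Slco1a4 (adjusted p = 0.744), -0.34 for Abcb4 (adjusted p = 0.655) and 1.06 for Abcc4 (adjusted p = 0.328).

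Genes around these carriers were read from the same fit in 5 lists: other transporters of the hepatocyte membranes, bile acid enzymes, nuclear receptors and other regulators, target genes of xenobiotic and stress receptors, and scaffolds of the apical membrane. Of 82 genes listed, 76 were named by 1 probe set or more and 67 were tested. With LDC in males 1 of the 67 rose and 1 fell, beside 0.278% of all probe sets that passed in males and 0.122% in females. In females 0 passed limma's test. The methods' t-test could not decide this, since after adjustment it called 0 of all 27022 probe sets in females. With limma, 8 of the 67 had an unadjusted p under 0.05 in females, beside 9.01% of all probe sets, and 21 did in males, beside 10.2%. The median log2 fold change of the 67 was 0.06 in males and 0.04 in females. The 17 other transporters tested held no call for LDC in either sex. Abcg2, a canalicular exporter of xenobiotics, had 3694, 3753 and 3285 in LDC males, against 4388, 5138 and 4746 in control males, which gave -0.41 ± 0.11 on the log2 scale (adjusted p = 0.176), and Slc47a1, an exporter of cations, had 0.41 ± 0.17 (adjusted p = 0.432). In females the smallest p belonged to Abcc6 (0.40 ± 0.18, adjusted p = 0.546) and Abcc5 (-0.39 ± 0.22, adjusted p = 0.642).

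Of the 11 bile acid enzymes, Hsd3b7, which acts early in the conversion of oxysterols to bile acids, fell in LDC males. Its signal was 11578, 12063 and 10830 in LDC males, against 19837, 19218 and 15671 in control males, and the log2 fold change was -0.66 ± 0.12 (adjusted p = 0.0448). The groups did not overlap, but the call was lost in 9 of 12 fits without 1 array (adjusted p up to 0.212). Cyp7b1, which hydroxylates oxysterols, had 19175, 17748 and 10901 in LDC males, against 19944, 30376 and 31893 in control males, which gave -0.79 ± 0.22 (adjusted p = 0.184). In females Akr1d1, a steroid reductase of the pathway, had 0.42 ± 0.15 (adjusted p = 0.417) and Cyp7a1, the rate-limiting enzyme of bile acid synthesis, -0.66 ± 0.39 (adjusted p = 0.654). In males Cyp7a1 had 0.95 ± 0.39 (adjusted p = 0.418), with 4339, 3872 and 4867 in LDC males, against 2755, 2939 and 1396 in control males, which did not overlap.

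Among the 23 regulators tested, Esr1, the estrogen receptor alpha, rose in LDC males. It had 1899, 1944 and 1790 in LDC males, against 879.5, 932 and 922 in control males, 1.04 ± 0.16 as log2 fold change (adjusted p = 0.0153). In females it had 2373, 2560 and 2109 with LDC, against 2017, 2964 and 3474 in controls, and the difference between the effects was 1.27 ± 0.23 (adjusted p = 0.041). The call in males was lost in 5 of 12 fits without 1 array (adjusted p up to 0.0871) and that of the difference in 11 of 12 (up to 0.12). A second probe set of Esr1 gave 1.15 ± 0.23 in males (adjusted p = 0.0549), and the third, dim, 0.13 ± 1.30. The lipid receptor Ppara had 0.44 ± 0.13 in males (adjusted p = 0.229). In females Cebpa, a hepatocyte transcription factor, had 0.30 ± 0.09 (adjusted p = 0.29), and Nr0b2, the bile acid induced repressor SHP, 1.15 ± 0.47 (adjusted p = 0.492). In males Cebpa had -0.24 ± 0.09 (adjusted p = 0.389) and Nr0b2 1.26 ± 0.47 (adjusted p = 0.376). The LDC and control arrays did not overlap for either gene in males, and in females they overlapped for Nr0b2.

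None of the 9 receptor targets tested passed for LDC. Cyp2b10, a target of the receptor CAR, had 0.57 ± 0.24 in males (adjusted p = 0.425) and 0.74 ± 0.24 in females (adjusted p = 0.346), Srxn1, a target of NRF2, -0.59 ± 0.20 in males (adjusted p = 0.326) and Cyp1a2 0.48 ± 0.11 in females (adjusted p = 0.148) and -0.23 ± 0.11 in males (adjusted p = 0.521). None of the 7 scaffold genes tested passed either. Slc9a3r1, which anchors apical transporters, had 0.34 ± 0.11 (adjusted p = 0.302) and Rab11a -0.14 ± 0.09 (adjusted p = 0.638) in males, and in females Msn had -0.63 ± 0.27 (adjusted p = 0.508) and Myo5b -0.42 ± 0.22 (adjusted p = 0.598).

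**Figure D4:**
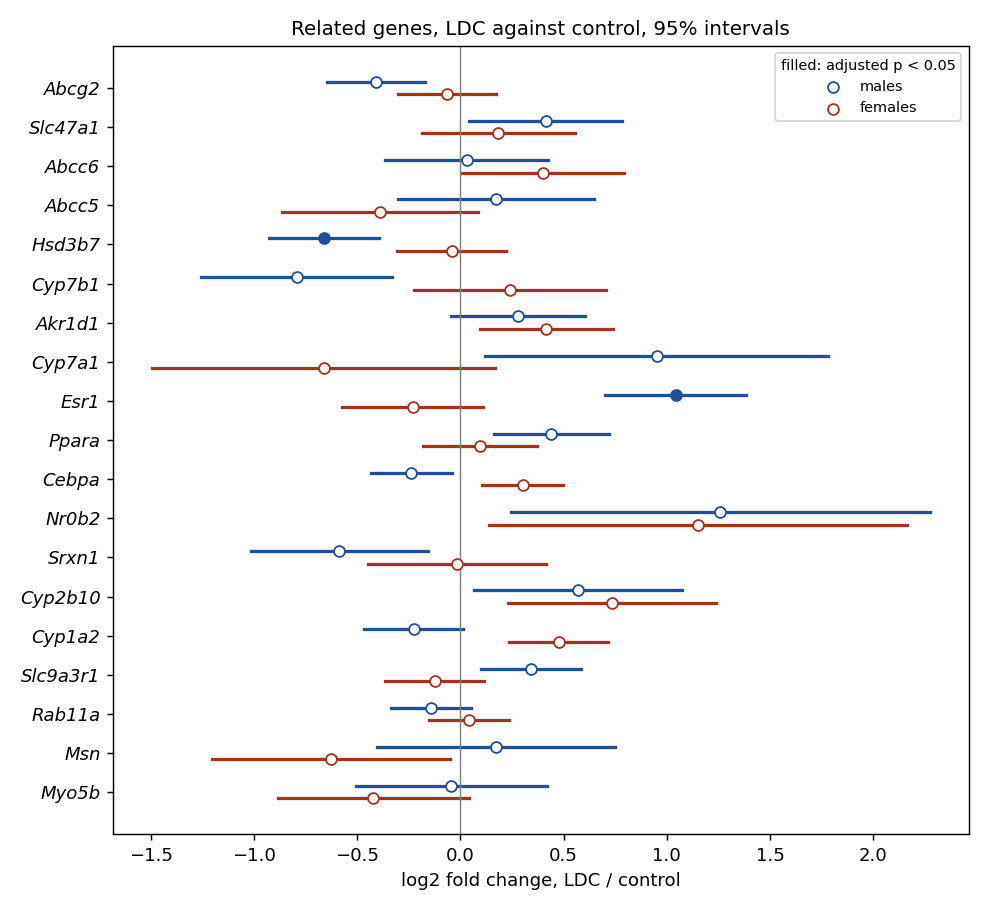
Log2 fold change of LDC against control in males (blue) and females (red) for the related genes with the smallest unadjusted p of each list, with 95% intervals from limma and filled points where the adjusted p is under 0.05. Hsd3b7 lies below 0 and Esr1 above 0 in males, and these are the filled points.

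Between the sexes, 13 of the 67 related genes passed in LDC mice, 6 higher and 7 lower in males, beside 6.29% of all probe sets, and 19 in control mice, 10 higher and 9 lower, beside 7.73%. Both exposures called 8 of the genes, Abcg2, Cyp7b1, Cyp3a11 and Ppara as higher in males and Atp7b, Fgfr4, Cyp2b10 and Gclc as lower. Abcg2 had log2 fold changes of 0.94 ± 0.11 in LDC mice and 1.28 ± 0.11 in control mice, and Cyp7b1 had 1.86 ± 0.22 in LDC mice and 2.89 ± 0.22 in control mice. In control mice alone the test called Slc10a2, Acox2, Rxra, Hnf4a, Cebpa and Cyp1a2 as higher in males and Cyp7a1, Nr1i3, Ahr, Nfe2l2 and Esr1 as lower. In LDC mice alone it called Bcl6 and Slc9a3r1 as higher in males and Hsd3b7, Txnrd1 and Pdzk1 as lower. Whether such genes differ between the exposures was tested by the male minus female LDC effect, where Esr1 alone of the 67 passed.

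By Pearson r of log2 signal over the 12 arrays, a description in which the 4 groups and both sexes are shared by every gene, the genes most like Slco1a1 were Creb3l3 (r = 0.976), Gpc1 (0.965) and Ovol1 (0.956). For Slco1a1, r includes control female 1 at 7.81, far below the next lowest array (209), and r without it was not computed. Those most like Slco1a4 were Vnn3 (0.964), Hpgd (0.951) and Gypc (0.95), and those most like Abcc4 were Arhgef11 (0.941), Pla2g15 (0.926) and Lmo2 (0.923).

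Of the markers of other liver cells, those of neutrophils held the most calls for LDC, and for 3 of 5 the effect in males minus that in females passed as higher. Among all probe sets, 0.278% passed for LDC in males, 0.122% in females and 0.178% for the effect in males minus that in females. Neutrophil markers were called as lower in LDC females for 3 of 5 (S100a8, S100a9 and Ngp) and as higher in LDC males for 1 of 5 (S100a8), although the call was lost for Ngp in 9 of 12 and for S100a8 in males in 4 of 12 fits without 1 array. The summed signal of the neutrophil markers ranged in LDC males over 3136 to 3590, against 1200 to 1607 in control males. In LDC females it ranged over 678 to 1007, against 3219 to 5942 in control females, without overlap in either sex. Of the macrophage and Kupffer cell markers, 0 of 8 passed, with 8 estimates above 0 in males and 0 in females, and summed signals of 21517 to 29718 in LDC males against 15030 to 15196 in control males and of 7231 to 33574 in LDC females against 18080 to 46421 in control females. Of 4 lymphocyte markers Ighm was lower in LDC females. Stellate cell and bile duct markers held no call for LDC, and the bile duct markers Krt7, Krt19 and Cftr lay below the filter. The part of these cells in the signals of the transporter genes was not tested, and the hepatocyte markers held no call in either sex.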

How the data were processed

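Liver RNA of 12 mice was measured on 12 arrays. The authors computed the deposited signal intensity of each of 45101 probe sets with the MAS 5.0 algorithm in GeneSpring, on a linear scale without detection calls. Scaling every array to 1 trimmed mean removes any difference in total signal, and the number of arrays limits the precision.

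Symbols came from the platform's probe table, updated through gene IDs (34958 probe sets name 1 gene). The 64 control probe sets were left out. Intensities were log2 transformed, and the 27022 probe sets with a mean at or above the 40th percentile (log2 5.60) were tested with limma 3.58.1 in R 4.3.3, with 1 mean per group, an intensity trend and Benjamini-Hochberg adjustment. The procedure was tested on simulated data. The transporter genes, the lists and the tests were chosen with earlier results of these data known. The text names all 10 genes, each related gene called, and the 2 with the smallest p per list and LDC comparison. Promoter windows are those of RefSeq; 9 of 10 genes matched. Figures were drawn with matplotlib 3.10.9. Same-numbered arrays did not deviate together, so no pairing was used. Alternatives, among them the t-test that the study's methods name for other measurements (the methods' t-test), are given in the closing section.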

Additional observations from a re-analysis of the deposited data

Results flagged for a closer look

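The LDC effect differed between the sexes by its own test for Abcb11, for Esr1 among the related genes, and for 4 of the markers of other cells. For Abcb11 the effect in males minus that in females was -0.79 on the log2 scale (adjusted p = 0.0459), with -0.65 in males and 0.14 in females. For Esr1 it was 1.27 (adjusted p = 0.041), with 1.04 in males and -0.23 in females. Both calls were lost in 11 of 12 fits without 1 array. For the neutrophil markers the differences were 4.60 for S100a8 (adjusted p = 1.47e-05), 4.05 for S100a9 (adjusted p = 0.00228) and 2.99 for Ngp (adjusted p = 0.00949), and these passed in all 12 fits without 1 array. For Ighm, a lymphocyte marker, the difference was 3.81 (adjusted p = 0.0321), a call lost in 9 of 12 such fits (adjusted p up to 0.116).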

How the results depend on the processing

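Of 1400 recomputed values of the 60 log2 fold changes (10 genes in 6 comparisons), 1270 kept their direction and their side of the threshold, 71 no longer passed, 16 came to pass and 43 changed sign. None of the 43 belonged to a value that had passed. The count of transporter genes called for LDC in males, 2, became 0 with eBayes without a trend or with the methods' t-test and 1 with only the 6 arrays compared. For the difference, 1 became 0 with quantile normalization, median centring or no trend, and for the mean effect, 1 became 0 with 1 probe set per gene or no trend. Between control males and control females, 5 became 2 without a trend or with only the 6 arrays compared and 0 with the t-test, and between LDC males and LDC females, 2 became 4 with log2(signal + 32) or only the 6 arrays compared and 1 with the t-test. Of the related genes, the 2 called in males became 1 with median centring and 0 with no trend or the t-test, the 1 for the difference 0 with median centring or no trend, the 19 between control sexes 6, 8 and 0 and the 13 between LDC sexes 7, 21 and 3 with no trend, only the 6 arrays compared and the t-test in that order. Some of these settings called few of all 27022 probe sets. For LDC in males, 43 higher and 32 lower became 1 and 0 with no trend and 0 and 0 with the t-test. For the difference, 34 and 14 became 6 and 4 with no trend. Between control sexes, 969 and 1119 became 474 and 610 with no trend and 2 and 5 with the t-test. Between LDC sexes, 812 and 889 became 481 and 437 with no trend and 172 and 153 with the t-test. The causes were not tested. Median centring moved the split of all probe sets called as higher and lower in males to 608 and 1181 in LDC mice (812 and 889 otherwise) and to 663 and 1306 in control mice (969 and 1119 otherwise), with a median log2 shift of -0.10 in LDC mice.

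Replicate numbers were also used as a block, although correlations of same-numbered arrays were only -0.03 to 0.06. With the replicate block the transporter genes called were 1 in males, 0 for the difference, 0 for the mean effect, and of the related genes 1 in males and 0 for the difference. The other counts stayed within 1.5 times.

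Without each array in turn, the transporter genes called numbered 0 to 2 in males, 0 to 0 in females, 0 to 1 for the difference, 0 to 2 for the mean effect, 2 to 5 between control sexes and 2 to 3 between LDC sexes, and the related genes 0 to 2, 0 to 1, 0 to 1, 0 to 1, 11 to 20 and 7 to 16 in the same order. Calls over all probe sets moved as well. In males they ran from 9 higher and 8 lower without LDC male 3 to 63 and 40 without control female 1. In females they ran from 0 and 15 without LDC female 3 to 51 and 55 without control female 2. Between control sexes the range was 603 and 748 without control male 2 to 1047 and 1139 without control female 2. Between LDC sexes it was 504 and 550 without LDC male 3 to 904 and 957 without control female 1. Signs that changed were those of small estimates or of Slco1a1, with these ranges of log2 fold change over the 12 fits. For LDC against control males these ran -0.061 to 0.076 for Slc10a1 and -0.078 to 0.067 for Slco1b2. For LDC against control females these ran -0.019 to 0.154 for Slco1b2, -1.077 to 2.829 for Slco1a1, -0.047 to 0.237 for Abcb4 and -0.253 to 0.077 for Abcc4. For the LDC effect in males minus females these ran -0.166 to 0.007 for Slco1b2, -3.408 to 0.498 for Slco1a1 and -0.266 to 0.111 for Abcc2. For the mean LDC effect over both sexes these ran -0.016 to 0.071 for Slco1b2, -0.828 to 1.125 for Slco1a1 and -0.130 to 0.015 for Abcb4. For control males against control females these ran -0.023 to 0.150 for Slco1b2, -0.108 to 0.055 for Abcb11 and -0.124 to 0.208 for Abcc2. For LDC males against LDC females these ran -0.068 to 0.065 for Slco1b2, -0.216 to 0.121 for Abcc2 and -0.288 to 0.022 for Abcc4. Outside these fits, Slc10a1 in males became 0.013 with quantile normalization and 0.003 with arrayWeights, the mean effect of Slco1b2 became -0.001 with arrayWeights, and Abcc2 between control sexes became -0.009 with median centring.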
